A study of Rattus norvegicus with 12 samples.

Results

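Heat shock proteins and folding chaperones were described in rat lung across 4 groups of an experiment on trauma and hemorrhagic shock. The members are genes whose symbol on the array's platform begins with Hsp followed by a, b, d, e, h or 90 (Hspg2 apart), with Dnaj, Pdia or Bag, with Ppi and a single letter, or with Cct and a digit, together with Canx, Calr, Cryab, Serpinh1 and P4hb. Only probe sets with 1 symbol were used, and where a gene had several, the one whose mean level across the 12 arrays was highest stood for it. This gave 42 of 4736 genes, of which 20 code for proteins that work mainly in the cytosol, 15 in the endoplasmic reticulum, 5 in the mitochondrion and 2 in the nucleus. The compartment of each gene was assigned from textbook knowledge, not from the arrays.

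Whole lungs came from male Sprague-Dawley rats of 300 to 420 g, whose age the labels do not give, and the RNA was hybridised to one-colour Affymetrix RG-U34A arrays. In all 4 groups cannulas were placed in a femoral artery and a jugular vein and the abdomen was opened by laparotomy, the tissue injury of the model. T/SS, trauma with sham shock, lost no blood and kept a normal mean arterial pressure. T/HS, trauma with hemorrhagic shock, was bled to a mean arterial pressure of 30 mmHg, held there for 90 min, and then given back all its shed blood, which had been drawn into heparin. In both LDL groups (T/HS-LDL and T/SS-LDL) the efferent mesenteric lymphatic vessels were first tied and cut (lymph duct ligation, LDL), and the same sham or shock procedure followed. Pentobarbital was the anaesthetic. A temperature of 37 °C is recorded for all 4 groups. Lungs were taken 3 h after resuscitation. The labels describe no resuscitation other than the return of the shed blood. Whole lung holds many cell types, so fewer cells of a type and less RNA per cell cannot be told apart in any value below.

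Chaperones bind proteins that are not yet folded, or have lost their fold, and keep them from clumping. In the cytosol, Hsp70 proteins work with Hsp40 (J-domain) partners and Hsp90, small heat shock proteins hold unfolded chains, and the CCT ring encloses actin and tubulin; many of these genes are switched on by the heat shock factor Hsf1. In the endoplasmic reticulum, BiP (Hspa5) and Grp94 (Hsp90b1) bind new secreted and membrane proteins, the lectins calnexin and calreticulin hold those with sugar chains, disulfide isomerases join their cysteines, and the unfolded protein response raises many of these genes when folding fails.

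The 3 arrays of each group held 1 pair that was nearly identical. In these 4 pairs the robust SD of the log2 differences between the arrays was 0.00993 to 0.0548 and no probe set differed by more than 2-fold. In the 8 other pairs within a group it was 0.164 to 0.232, with 40 to 256 probe sets beyond 2-fold. The labels call every array a biological replicate. Each near-identical pair was averaged and entered as 1 sample, which left 8 samples, 2 per group: T/SS replicate 1 and the average of T/SS replicates 2 and 3, and, in each of the other groups, the average of replicates 1 and 3 and replicate 2 alone. Values are given below in that order, T/SS replicate 1 first and the averaged sample first in the other groups, as log2 intensity, so that a difference of 1 is a 2-fold difference. The 12 array medians were 647 to 677 intensity units. The summed intensity of 4 measured alveolar type II cell markers was 16.72 to 16.89 log2 units in the 8 samples, so the labelled tissue was present in each. The 3′ to 5′ difference of Gapdh, a sign of RNA quality, was 0.98 to 1.54 log2 units and was highest in the averaged T/SS-LDL sample. Its part in the results was not tested.

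**Figure D1:**
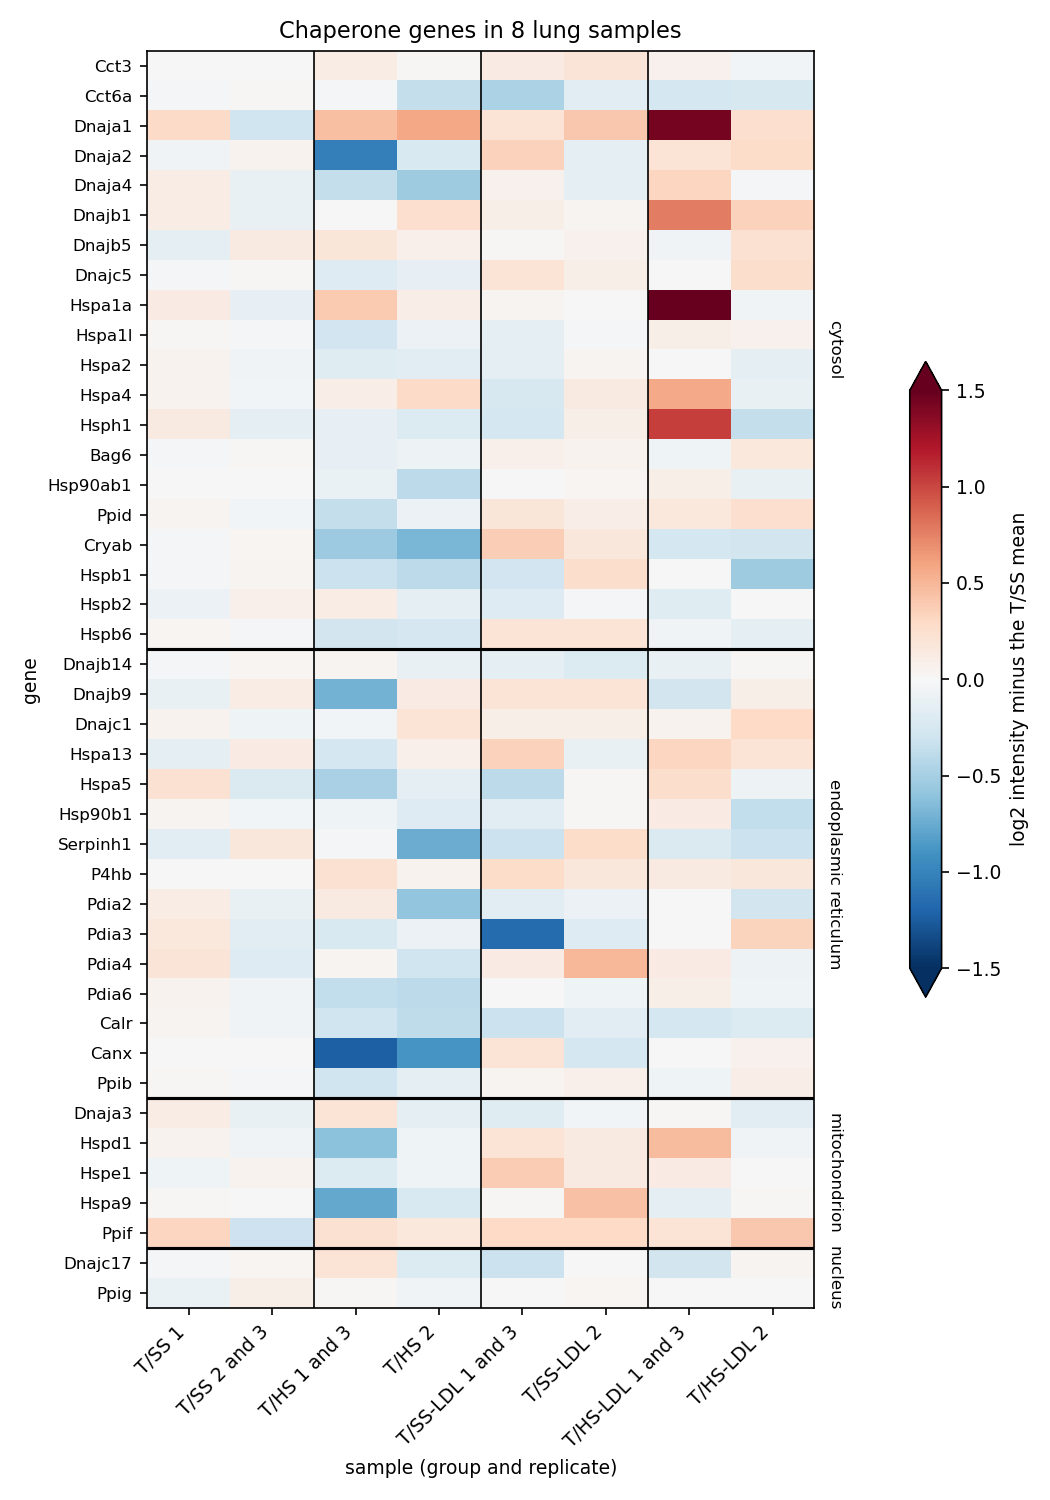
Each row is 1 of the 42 genes, grouped by compartment, and each column 1 of the 8 samples; colour gives the log2 intensity minus the mean of the T/SS samples (blue lower, red higher, with the ends of the scale at 1.5). Canx is dark blue in both T/HS samples, Cryab is blue in the 4 samples with shock, and Hspa1a, Dnaja1 and Hsph1 are dark red in the averaged T/HS-LDL sample alone.

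No member passed an adjusted p of 0.05 in any of 6 comparisons in the limma fit over the 8 samples, and neither did any of the 8740 probe sets (0%). The 6 comparisons were shock with the duct open (T/HS against T/SS), shock with the duct ligated (T/HS-LDL against T/SS-LDL), ligation in shocked rats (given as T/HS against T/HS-LDL), ligation in sham rats (T/SS-LDL against T/SS), shock averaged over both duct states, and the interaction, which is the shock difference with the duct open minus that with the duct ligated. They share samples, so their values are not independent. When the 12 arrays were entered as separate samples, which counts the near-identical arrays apart, limma called 7 members for shock with the duct open, 2 for shock with it ligated, 9 for ligation in shocked rats, 0 for ligation in sham rats, 5 for shock over both duct states and 0 for the interaction. A limma fit of the 12 arrays that treats near-identical arrays as correlated (a random block) called Canx and Cryab for shock with the duct open and Cryab for shock over both duct states. That fit keeps 8 residual degrees of freedom, against 4 in the 8-sample fit, so its p-values may be too small. The differences below are therefore described with their standard errors and the unadjusted p of the 8-sample limma fit, and none is a call after adjustment.

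In T/HS against T/SS, 13 of 15 endoplasmic reticulum members and 14 of 20 cytosolic members were lower in T/HS, with medians of -0.22 and -0.17 on the log2 scale, against a median of -0.01 over all 4736 genes. In the same comparison 9 of 9 neutrophil markers were higher (median 0.92, 8 of 9 with groups apart), as were 4 of 5 markers of monocytes and macrophages (median 0.58, 4 of 5 apart), and their part in the members' values was not tested. Of the 42 members, 7 had an unadjusted limma p under 0.05 with a lower mean in T/HS and 0 with a higher one. Over all genes, 4.98% were lower and 3.63% higher by the same rule. The T/HS samples lay wholly below the T/SS samples for 20 members and wholly above them for 4; over all genes these shares were 20.9% and 18.7%. The 7 members were Canx, Calr and Pdia6 of the endoplasmic reticulum, Cryab, Hspb6 and Dnaja4 of the cytosol, and Hspa9 of the mitochondrion.

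Canx, which codes for calnexin, the membrane-bound lectin chaperone, stood lowest of the members against T/SS. Its level was 13.27 and 13.28 log2 intensity in T/SS, 12.05 and 12.38 in T/HS, 13.48 and 13.01 in T/SS-LDL, and 13.28 and 13.34 in T/HS-LDL. Both T/HS samples lay below all other samples, and the other 3 groups overlapped. The T/HS level was 0.479 times that of T/SS (log2 difference -1.06 ± 0.18, SE, n = 2 against 2, limma unadjusted p = 0.000583, adjusted p = 0.373; adjusted p = 0.0304 in the random-block fit) and 0.466 times that of T/HS-LDL (-1.10 ± 0.18, limma unadjusted p = 0.000475, adjusted p = 0.677). With the duct ligated the shock difference was 0.07 ± 0.18. The interaction of shock and ligation was -1.13 ± 0.25 (limma unadjusted p = 0.0029, adjusted p = 1). Leaving out each sample in turn kept the difference from T/SS between -1.23 and -0.90.

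Calnexin had 5 probe sets, the most of any member, and 4 of them were lower in both T/HS samples than in both T/SS samples. The 3 next to the one that stands for the gene differed by -1.33 ± 0.30, -1.08 ± 0.23 and -0.55 ± 0.25 (log2, T/HS minus T/SS). The first of these 3 and the probe set that stands for the gene carry the name of the same sequence record, so they are not separate checks. The remaining probe set was at 10.70 and 10.99 in T/SS and at 10.89 and 10.81 in T/HS, a difference of 0.01 ± 0.15. The 2 samples of T/HS also differed from each other, with the averaged sample below replicate 2 on all 4 probe sets that were lower.

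**Figure D2:**
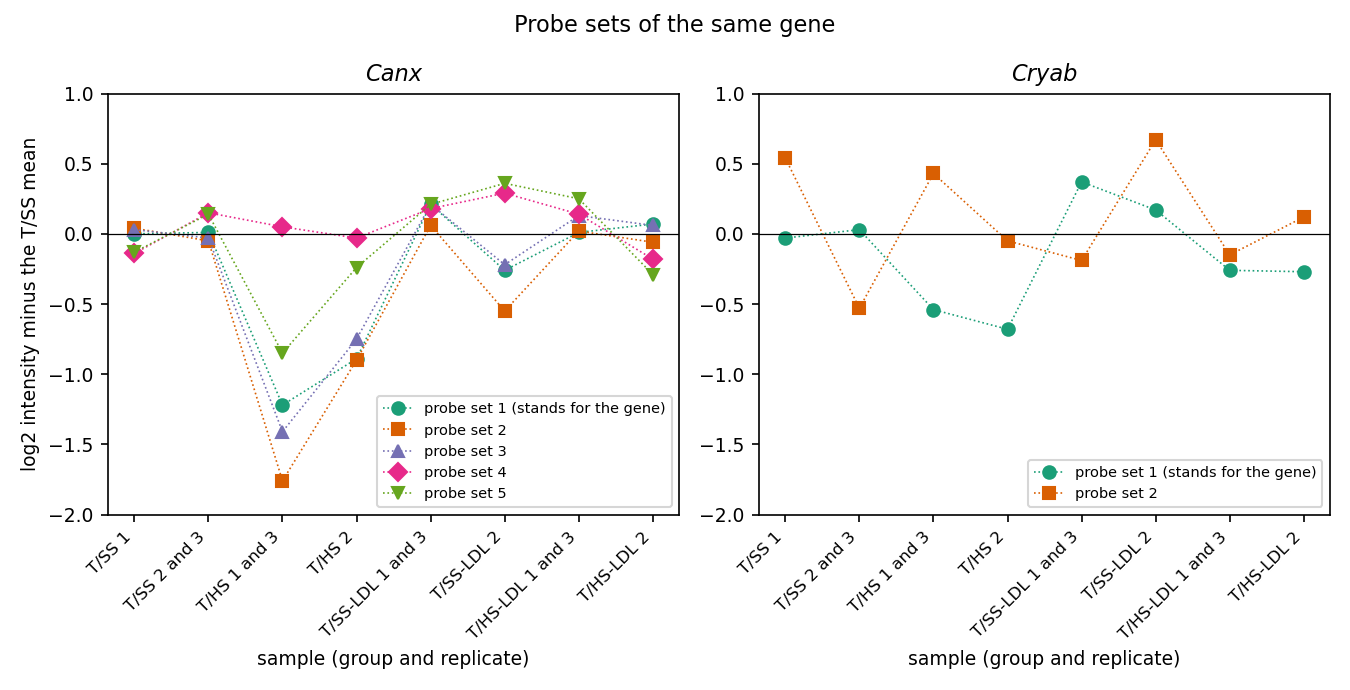
Log2 intensity minus the T/SS mean (vertical axis) in the 8 samples (horizontal axis) for the 5 probe sets of Canx and the 2 of Cryab, numbered by falling mean level; dotted lines only join the points of a probe set. For Canx, 4 probe sets drop in both T/HS samples and probe set 4 does not; for Cryab the 2 probe sets do not follow each other.

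Calr, which codes for calreticulin, the soluble counterpart of calnexin, was at 14.07 and 13.98 in T/SS, 13.73 and 13.65 in T/HS, 13.71 and 13.86 in T/SS-LDL, and 13.77 and 13.83 in T/HS-LDL. Here T/SS lay above all 6 other samples, which overlapped in part. T/HS was lower than T/SS by -0.34 ± 0.10 (limma unadjusted p = 0.0127, adjusted p = 0.455), and its 2 other probe sets differed by -0.32 ± 0.13 and -0.85 ± 0.23. With the duct ligated the difference was 0.02 ± 0.10. The interaction was -0.35 ± 0.14 (limma unadjusted p = 0.0433, adjusted p = 1).

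Pdia6, a disulfide isomerase that also restrains stress sensors of the endoplasmic reticulum, was at 13.00 and 12.90 in T/SS, 12.58 and 12.56 in T/HS, 12.95 and 12.88 in T/SS-LDL, and 13.04 and 12.89 in T/HS-LDL. As with Canx, both T/HS samples lay below the other samples while the other groups overlapped. The T/HS level was 0.77 times that of T/SS (-0.38 ± 0.10, limma unadjusted p = 0.00718, adjusted p = 0.417) and 0.763 times that of T/HS-LDL (-0.39 ± 0.10, limma unadjusted p = 0.00595, adjusted p = 0.775). The interaction was -0.43 ± 0.14 (limma unadjusted p = 0.0199, adjusted p = 1). Pdia6 had 1 probe set, so no second measurement on the same array stands beside it.

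**Figure D3:**
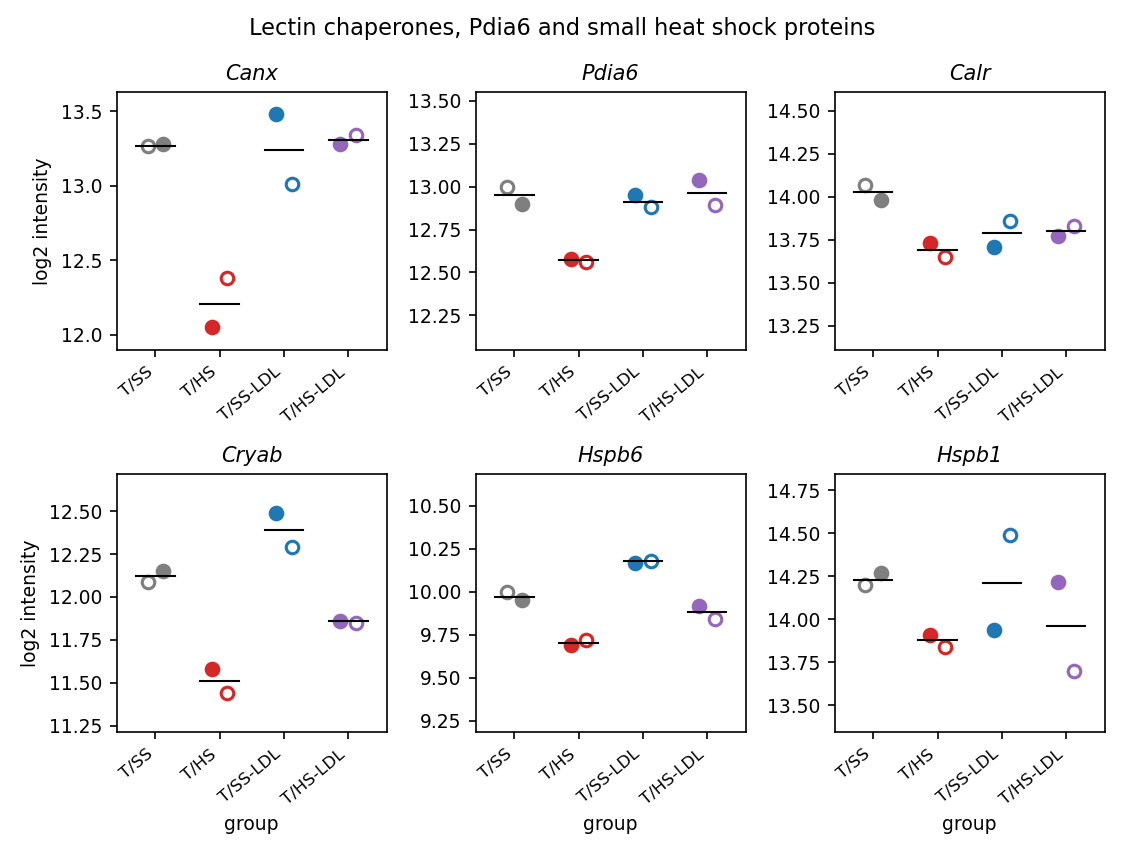
Log2 intensity (vertical axes, each 1.5 units or more in height) by group for 6 genes; filled points are samples averaged from 2 near-identical arrays, open points samples of 1 array, and bars the group means. Canx and Pdia6 are low in T/HS alone, Calr is high in T/SS alone, and Cryab and Hspb6 are lower with shock in both duct states.

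The other disulfide isomerases did not share that pattern. P4hb, the classical protein disulfide isomerase, was at 13.22 and 13.23 in T/SS, 13.46 and 13.28 in T/HS, 13.50 and 13.40 in T/SS-LDL, and 13.36 and 13.40 in T/HS-LDL, with T/SS below every other sample. Pdia3 (ERp57), which works with calnexin and calreticulin on sugar-bearing proteins, was at 12.82 and 12.50 in T/SS, 12.43 and 12.57 in T/HS, 11.51 and 12.47 in T/SS-LDL, and 12.66 and 12.99 in T/HS-LDL. Its difference between T/HS-LDL and T/SS-LDL (0.83 ± 0.30, limma unadjusted p = 0.0297, adjusted p = 0.998) rests on the averaged T/SS-LDL sample, the lowest of the 8, and was 0.35 without it. The second Pdia3 probe set was at 8.51 in that sample, the highest of its 8 values. Pdia2 and Pdia4 differed by -0.22 ± 0.24 and -0.13 ± 0.20 between T/HS and T/SS.

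The promoters of 4 endoplasmic reticulum members hold an exact match to the ER stress element, the motif bound by the factors of the unfolded protein response. The motif searched was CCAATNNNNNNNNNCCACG on both strands, in the 300 bases from 250 before to 50 after the start, taken from RefSeq (GRCr8). It was found in 22 of 33469 promoters (0.0657%), in 4 of 13 promoters of endoplasmic reticulum members (30.8%) and in 0 of 18 of cytosolic members. RefSeq promoters were given for 37 of the 42 genes. Cryab, Dnaja2, Hspb2, Pdia3 and Pdia6 had none and were not searched. The stretches below are shown because they mark which members carry this motif. They run 5′ to 3′ on the gene's strand, with the match in capitals; they are from chr19:40213117-40213196 (plus strand) for Calr, chr10:35158028-35158107 (minus strand) for Canx, chr7:23012317-23012396 (minus strand) for Hsp90b1 and chr3:38452936-38453015 (plus strand) for Hspa5.
Calr: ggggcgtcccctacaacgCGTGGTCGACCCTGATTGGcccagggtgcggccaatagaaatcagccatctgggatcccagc
Canx: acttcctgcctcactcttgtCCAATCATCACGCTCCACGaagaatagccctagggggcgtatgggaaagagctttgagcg
Hsp90b1: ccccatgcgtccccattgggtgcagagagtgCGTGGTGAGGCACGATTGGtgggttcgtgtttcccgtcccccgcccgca
Hspa5: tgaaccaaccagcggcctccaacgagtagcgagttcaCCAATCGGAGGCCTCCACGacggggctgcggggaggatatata
In Calr and Hsp90b1 the match shown reads on the opposite strand, and Hsp90b1 has a second match further from the start. A match is a match of letters and says nothing on whether a factor was bound in these lungs. An element that departs from the letters searched would be missed.

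Of the 4 genes with this motif, Canx and Calr are described above, and Hspa5 and Hsp90b1 had no unadjusted limma p under 0.05 in any comparison on the probe set that stands for them. Hspa5, which codes for BiP, the main Hsp70 of the endoplasmic reticulum, was at 12.56 and 12.11 in T/SS, 11.84 and 12.18 in T/HS, 11.94 and 12.35 in T/SS-LDL, and 12.59 and 12.25 in T/HS-LDL. All groups except T/HS and T/HS-LDL overlapped, and T/HS minus T/SS was -0.33 ± 0.23. A second Hspa5 probe set was at 10.83 and 10.62 in T/SS, 8.74 and 10.03 in T/HS, 10.58 and 10.41 in T/SS-LDL, and 10.96 and 10.17 in T/HS-LDL, with a difference of -1.34 ± 0.42 between T/HS and T/SS (limma unadjusted p = 0.016, adjusted p = 0.472) in which the averaged T/HS sample was far below replicate 2. The last, at 5.45 to 5.84 in the 8 samples, differed by 0.09 ± 0.12.

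Hsp90b1, which codes for Grp94, the Hsp90 of the endoplasmic reticulum, was at 12.78 and 12.70 in T/SS, 12.68 and 12.55 in T/HS, 12.57 and 12.76 in T/SS-LDL, and 12.86 and 12.37 in T/HS-LDL, a difference of -0.12 ± 0.17 between T/HS and T/SS. Its 2 dimmer probe sets differed more, by -0.64 ± 0.25 and -0.82 ± 0.34 (limma unadjusted p = 0.0367 and 0.0492, adjusted p = 0.535 and 0.568). Its cytosolic relative Hsp90ab1 was at 14.83 and 14.84 in T/SS, 14.73 and 14.44 in T/HS, 14.83 and 14.86 in T/SS-LDL, and 14.92 and 14.72 in T/HS-LDL. On 3 arrays Hsp90ab1 was within 2% of the array's top value, so its differences there may be cut short; T/HS minus T/SS was -0.25 ± 0.13. Its 3 other probe sets, on no array that near the top, gave -0.22 ± 0.17, -0.40 ± 0.23 and -0.61 ± 0.35. None of the 4 Hsp90ab1 differences had an unadjusted limma p under 0.05.

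Of the other endoplasmic reticulum members, Serpinh1 (Hsp47), the collagen chaperone, was at 12.39 and 12.73 in T/SS, 12.53 and 11.82 in T/HS, 12.24 and 12.84 in T/SS-LDL, and 12.34 and 12.24 in T/HS-LDL, and its T/HS value is low in replicate 2 alone. Ppib (cyclophilin B), a prolyl isomerase that helps collagen fold, was at 12.99 and 12.95 in T/SS and 12.67 and 12.82 in T/HS, with 13.01, 13.05, 12.90 and 13.07 in the 4 samples with ligation (T/HS minus T/SS -0.22 ± 0.11, limma unadjusted p = 0.074). Its second probe set gave -0.38 ± 0.10 for T/HS minus T/SS (limma unadjusted p = 0.00822, adjusted p = 0.419). The BiP partners Dnajb9 and Dnajc1, with Dnajb14 and the Hsp70 relative Hspa13, differed between T/HS and T/SS by -0.29 to 0.09, and none had an unadjusted limma p under 0.05 there. Dnajb9 was low in the averaged T/HS sample (8.06, with 8.50 to 8.97 in the other samples).

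Of the 4 small heat shock proteins of the cytosol, Cryab and Hspb6 had an unadjusted limma p under 0.05 for shock in both duct states, and Hspb1 and Hspb2 in neither, on the probe sets that stand for the genes. Cryab, which codes for alpha B-crystallin, a holder of unfolded chains that is abundant in muscle, was at 12.09 and 12.15 in T/SS, 11.58 and 11.44 in T/HS, 12.49 and 12.29 in T/SS-LDL, and 11.86 and 11.85 in T/HS-LDL. All 4 samples with shock lay below all 4 sham samples, and within each procedure the ligated samples lay above those with the duct open. Shock averaged over both duct states gave 0.673 times the sham level (-0.57 ± 0.08, n = 4 against 4, limma unadjusted p = 0.000163, adjusted p = 0.225, and 0.00464 in the random-block fit). The difference was -0.61 ± 0.11 with the duct open (limma unadjusted p = 0.000885, adjusted p = 0.373, and 0.0271 in the random-block fit) and -0.53 ± 0.11 with it ligated (limma unadjusted p = 0.00186, adjusted p = 0.998), and the interaction was -0.08 ± 0.15. Ligation without shock gave 0.27 ± 0.11 (limma unadjusted p = 0.0421, adjusted p = 0.896). Leaving out each sample in turn kept the Cryab difference for shock over both duct states between -0.62 and -0.52.

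The second Cryab probe set did not repeat this. It was at 12.30 and 11.23 in T/SS, 12.19 and 11.71 in T/HS, 11.57 and 12.43 in T/SS-LDL, and 11.61 and 11.88 in T/HS-LDL, and its shock difference over both duct states was -0.03 ± 0.29. The samples of one group differed there by up to about 1 log2 unit, so its standard error is more than 3 times that of the probe set that stands for the gene.

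Hspb6 (Hsp20), a small heat shock protein of muscle, followed the same order of groups as Cryab. Its level was 10 and 9.95 in T/SS, 9.69 and 9.72 in T/HS, 10.17 and 10.18 in T/SS-LDL, and 9.92 and 9.84 in T/HS-LDL, so that the samples with shock again lay below the sham samples. Shock gave -0.27 ± 0.09 with the duct open and -0.29 ± 0.09 with it ligated (limma unadjusted p = 0.0192 and 0.0139, adjusted p = 0.484 and 0.998), and -0.28 ± 0.06 over both (limma unadjusted p = 0.00305, adjusted p = 0.315). Its second probe set differed by -0.15 ± 0.08 over both duct states. Hspb1 (Hsp27), the widely expressed member, was at 14.20 and 14.27 in T/SS, 13.91 and 13.84 in T/HS, 13.94 and 14.49 in T/SS-LDL, and 14.22 and 13.70 in T/HS-LDL, with groups that overlapped once the duct was ligated. Its 3 other probe sets differed by -0.54 ± 0.12, -0.62 ± 0.28 and -0.29 ± 0.23 with the duct open. With the duct ligated they differed by -0.33 ± 0.12, -0.02 ± 0.28 and 0.09 ± 0.23. Of these 6 differences the pair of the first probe set alone had an unadjusted limma p under 0.05 (0.00257 and 0.026, adjusted p = 0.373 and 0.998). Hspb2 differed by 0.02 ± 0.13 or less in size in both duct states. Its second probe set differed by -0.26 ± 0.12 with the duct open and 0.05 ± 0.12 with it ligated (limma unadjusted p = 0.0764 and 0.696).

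Smooth muscle markers were lower with shock, as were Cryab and Hspb6. All 8 measured smooth muscle markers were lower with shock averaged over both duct states, by a median of -0.36, and all 8 were lower in T/HS-LDL than in T/SS-LDL (median -0.46), with no overlap of the groups for any, where 13.1% of all genes were apart in that direction. In T/HS against T/SS all 8 were lower too (median -0.22), with 3 of 8 apart, where 20.9% of all genes were. Their summed intensity was 15.74 and 16.05 log2 units in T/SS, 15.73 and 15.53 in T/HS, 16.00 and 16.14 in T/SS-LDL, and 15.55 and 15.70 in T/HS-LDL. The summed intensity of 16 heart muscle markers, 15.05 and 14.27 in T/SS, 15.18 and 14.96 in T/HS, 15.15 and 15.33 in T/SS-LDL, and 14.94 and 13.92 in T/HS-LDL, did not follow that order. By gene, 14 of these 16 were lower in T/HS-LDL than in T/SS-LDL (median -0.55), with 10 of 16 apart, where 13.1% of all genes were. Against T/SS, 13 of 16 were higher in T/HS (median 0.21) and 13 of 16 were higher in T/SS-LDL (median 0.475). Neutrophil markers were higher with shock: the sum over 9 of them was 14.42 and 14.74 in T/SS, 15.19 and 16.15 in T/HS, 15.45 and 15.05 in T/SS-LDL, and 15.95 and 16.15 in T/HS-LDL. The part of muscle and neutrophil content in the Cryab and Hspb6 values was not tested.

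Among cytosolic Hsp70 and Hsp40 genes, Hspa1a, Hsph1 and Dnaja1 were more than 1 log2 unit higher in the averaged T/HS-LDL sample than in T/HS-LDL replicate 2. Hspa1a, which codes for the inducible Hsp70, was at 10.53 and 10.29 in T/SS, 10.80 and 10.51 in T/HS, 10.45 and 10.42 in T/SS-LDL, and 12.58 and 10.36 in T/HS-LDL. The averaged T/HS-LDL sample was 2.22 log2 units above T/HS-LDL replicate 2, while the other 7 samples lay between 10.29 and 10.80. T/HS-LDL minus T/SS-LDL was 1.04 ± 0.61 (limma unadjusted p = 0.137, adjusted p = 0.998), and -0.08 without the averaged T/HS-LDL sample.

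Of the 11 cytosolic Hsp70 and Hsp40 genes, 7 had their highest value in that sample, and Dnaja2, Dnajb5, Dnajc5 and Hspa2 did not. Hsph1 (Hsp105), which exchanges the nucleotide of Hsp70, was at 11.13 and 10.87 in T/SS, 10.88 and 10.79 in T/HS, 10.74 and 11.09 in T/SS-LDL, and 12.04 and 10.64 in T/HS-LDL. Dnaja1, an Hsp40 partner, was at 11.80 and 11.21 in T/SS, 11.96 and 12.09 in T/HS, 11.71 and 11.91 in T/SS-LDL, and 12.95 and 11.76 in T/HS-LDL. Hspa4, another exchange factor, was at 10.91 and 10.82 in T/SS, 10.96 and 11.15 in T/HS, 10.62 and 10.99 in T/SS-LDL, and 11.43 and 10.75 in T/HS-LDL. Each of these 3 had its highest value in the averaged T/HS-LDL sample, by 1.40, 1.19 and 0.68 log2 units over T/HS-LDL replicate 2. Without it, their differences between T/HS-LDL and T/SS-LDL went from 0.42, 0.55 and 0.29 to -0.28, -0.04 and -0.05.

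Dnajb1 (Hsp40), the main stress-inducible partner of Hsp70, was higher in both T/HS-LDL samples than in the other 6, as was Hspa1l, a dim Hsp70 relative (7.63 and 7.61, with 7.25 to 7.56 in the others). Dnajb1 was at 11.18 and 10.96 in T/SS, 11.08 and 11.32 in T/HS, 11.16 and 11.11 in T/SS-LDL, and 11.84 and 11.42 in T/HS-LDL. T/HS-LDL minus T/SS-LDL was 0.49 ± 0.17 (limma unadjusted p = 0.023, adjusted p = 0.998) and T/HS minus T/HS-LDL was -0.43 ± 0.17 (limma unadjusted p = 0.0393, adjusted p = 0.775). Shock averaged over both duct states gave 0.31 ± 0.12 (limma unadjusted p = 0.0357, adjusted p = 0.527). Its second probe set was higher in the averaged T/HS-LDL sample and in replicate 2 as well (11.17 and 11.10, with 10.61 and 11.09 in T/SS-LDL).

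**Figure D4:**
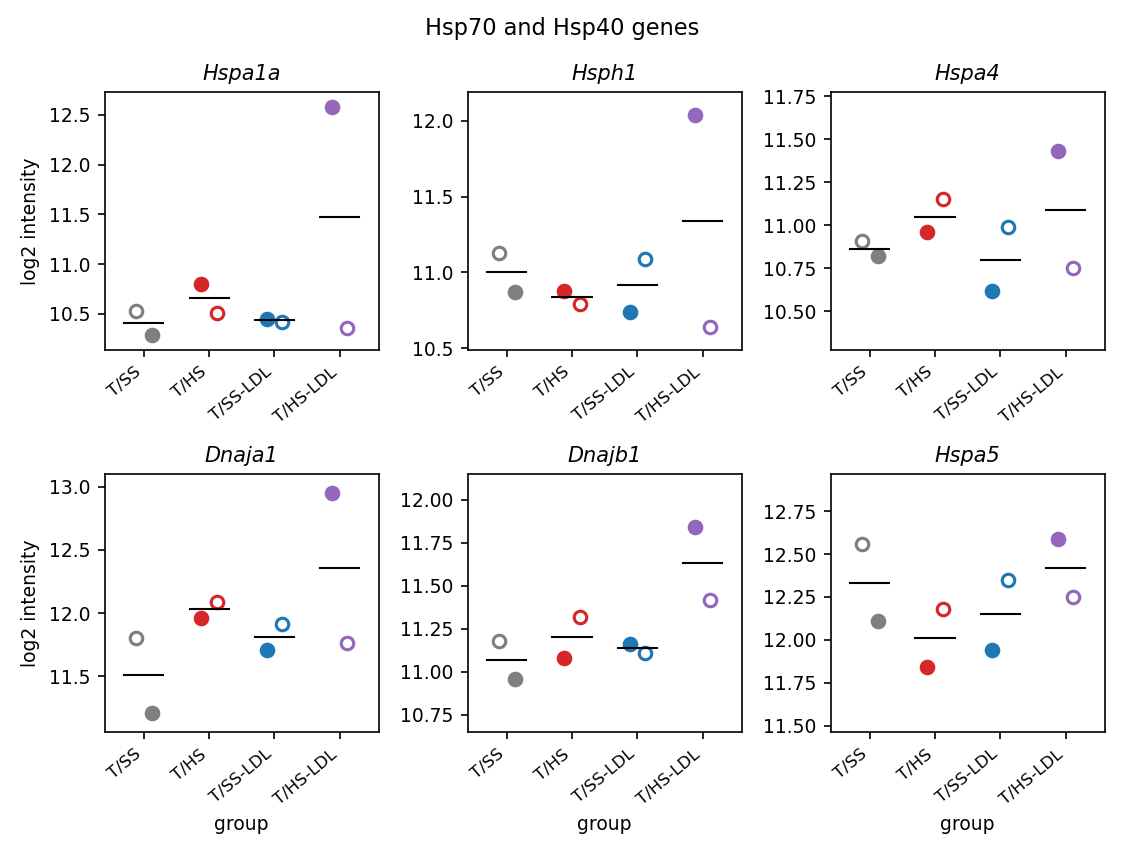
Log2 intensity (vertical axes) by group for 5 cytosolic genes and Hspa5 of the endoplasmic reticulum; filled points are samples averaged from 2 near-identical arrays, open points samples of 1 array, and bars the group means. The filled T/HS-LDL point lies above all others for the 5 cytosolic genes, with 12.58 for Hspa1a, and the open T/HS-LDL point does so for none of them but comes second for Dnajb1.

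The averaged T/HS-LDL sample held the highest of 8 values for 12 of the 42 members, 8 of them among the 20 cytosolic genes, and the lowest for 0. Over all 4736 genes it was highest for 9.31% and lowest for 8.83%. It exceeded T/HS-LDL replicate 2 by more than 1 log2 unit for 3 of 20 cytosolic members and 0 of 15 endoplasmic reticulum members, against 0.633% of all genes. The arrays averaged into it were nearly identical, so they give no second measurement of this excess. Outside the members, 2 of 25 other genes of these pathways and 4 of 16 heart muscle markers also exceeded replicate 2 by more than 1 log2 unit. The 2 were Ddit3 (CHOP), a factor induced by failed folding, at 10.54 with 9.36 to 9.82 in the other samples, and P4ha1 of the endoplasmic reticulum, at 12.05 with 10.76 to 11.66. Chordc1, an Hsp90 co-chaperone, was also highest there, by less, at 10.26 with 9.29 to 9.78. These genes were named after their values were seen. Hsf1 itself was at 11.66 to 11.94 in the 8 samples.

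The promoters of 5 members hold an exact match to the heat shock element, the motif of Hsf1. The letters searched were GAANNTTCNNGAA on both strands in the same windows. They occurred in 267 of 33469 promoters (0.798%) and in 5 of 38 member promoters (13.2%): Hsph1, Serpinh1, Dnaja1 (9 to 21 bases after the start), Hspd1 and Hspe1. The last 2 genes lie head to head and share the same stretch of DNA. By compartment, the motif was found in 2 of 18 cytosolic, 1 of 13 endoplasmic reticulum and 2 of 5 mitochondrial promoters. Hsph1, Dnaja1 and Hspd1 had their highest value in the averaged T/HS-LDL sample (13.06 for Hspd1, with 11.96 to 12.78 in the others), and Serpinh1 and Hspe1 did not. Of all 42 members, 12 were highest in that sample. Among them were Hspa1a, Dnajb1 and Hspa4, whose promoters held no match. Only these exact letters were searched, so an element that departs from them or lies outside the window would be missed. The lack of a match therefore does not show that a gene lacks the element. The 4 stretches before a start are shown because they mark which members carry this motif upstream; they lie at chr12:10427288-10427367 (plus strand) for Hsph1, chr1:163062977-163063056 (minus strand) for Serpinh1, chr9:64084208-64084287 (minus strand) for Hspd1 and chr9:64084231-64084310 (plus strand) for Hspe1, in GRCr8 from RefSeq, with the matches in capitals.
Hsph1: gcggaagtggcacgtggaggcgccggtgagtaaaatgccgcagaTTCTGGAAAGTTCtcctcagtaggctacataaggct
Serpinh1: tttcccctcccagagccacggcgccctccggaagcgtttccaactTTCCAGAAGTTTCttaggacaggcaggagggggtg
Hspd1: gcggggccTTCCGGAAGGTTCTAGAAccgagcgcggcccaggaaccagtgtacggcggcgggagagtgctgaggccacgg
Hspe1: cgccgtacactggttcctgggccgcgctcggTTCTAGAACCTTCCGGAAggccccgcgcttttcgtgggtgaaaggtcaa
In Hspd1 and Hspe1 a pair of overlapping matches, 1 on each strand, is in capitals.

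In T/HS against T/HS-LDL, 34 of 42 members were lower in T/HS: 16 of 20 in the cytosol (median -0.25) and 13 of 15 in the endoplasmic reticulum (median -0.15), with a median of 0.02 over all genes. An unadjusted limma p under 0.05 was reached by 10 members with a lower level in T/HS and by 0 with a higher one, where all genes gave 4.67% and 1.96%. The T/HS samples lay wholly below for 20 members and wholly above for 0, where all genes gave 16% and 17.3%. This comparison and the one with T/SS share the T/HS samples, and the averaged T/HS sample held the lowest of 8 values for 15 of the 42 members, against 12.8% of all genes. The same sample held the highest value for 5 of the 42 members and for 25.8% of all genes, the largest such share of all genes in any sample. The summed intensity of 11 markers of T and NK cells was 13.94 log2 units in that sample and 12.90 to 13.17 in the others, and its part in the low values there was not tested.

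Cytosolic Hsp40 genes made up 4 of the 10. Dnaja4, an Hsp40 linked to sterol metabolism, was at 10.73 and 10.51 in T/SS, 10.26 and 10.09 in T/HS, 10.68 and 10.48 in T/SS-LDL, and 10.94 and 10.60 in T/HS-LDL, with both T/HS samples below the rest. T/HS differed by -0.44 ± 0.16 from T/SS (limma unadjusted p = 0.0257, adjusted p = 0.499) and by -0.60 ± 0.16 from T/HS-LDL (limma unadjusted p = 0.00677, adjusted p = 0.775), with an interaction of -0.63 ± 0.22 (limma unadjusted p = 0.0244, adjusted p = 1). Its second probe set differed by -0.55 ± 0.14 and -0.42 ± 0.14 in the same comparisons. Dnaja2, another Hsp40, was at 11.43 and 11.53 in T/SS, 10.45 and 11.25 in T/HS, 11.82 and 11.33 in T/SS-LDL, and 11.68 and 11.76 in T/HS-LDL. Its difference from T/HS-LDL, -0.87 ± 0.27 (limma unadjusted p = 0.0148, adjusted p = 0.775), was -0.47 without the averaged T/HS sample, and its 2 dimmer probe sets gave -0.48 ± 0.13 and -0.53 ± 0.15.

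Dnajc5, the cysteine string protein of secretory vesicles, differed between T/HS and T/HS-LDL by -0.29 ± 0.11 (limma unadjusted p = 0.0414, adjusted p = 0.775), but its 2 other probe sets were higher in T/HS, both by 0.15 ± 0.12, and their mean over the gene gave 0.00. Ppid (cyclophilin 40), an Hsp90 co-chaperone, was at 8.87 and 8.79 in T/SS, 8.47 and 8.74 in T/HS, 9.01 and 8.93 in T/SS-LDL, and 8.99 and 9.08 in T/HS-LDL (T/HS minus T/HS-LDL -0.44 ± 0.12, limma unadjusted p = 0.00778, adjusted p = 0.775). Hspa1l, an Hsp70 best known from the testis, was at 7.56 and 7.52 in T/SS, 7.25 and 7.45 in T/HS, 7.40 and 7.51 in T/SS-LDL, and 7.63 and 7.61 in T/HS-LDL. Its difference of -0.27 ± 0.10 (limma unadjusted p = 0.038, adjusted p = 0.775) is at a low level, the mean lying at percentile 20.4 of all probe sets. Cryab also differed between these groups, by -0.35 ± 0.11 (limma unadjusted p = 0.0159, adjusted p = 0.775). The rest of the 10 were Dnajb1, Canx and Pdia6, described above, and Hspd1.

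The other cytosolic members differed little. Bag6, a holder of membrane proteins on their way to degradation, and the CCT ring subunits Cct3 and Cct6a differed between T/HS and T/SS by -0.10 ± 0.10, 0.06 ± 0.09 and -0.19 ± 0.15. Hspa2 and Dnajb5 differed by -0.17 ± 0.11 and 0.13 ± 0.14. None of these 5 had an unadjusted limma p under 0.05 in any of the 6 comparisons.

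Among mitochondrial members, Hspd1 (Hsp60), the folding chamber of the matrix, was at 12.63 and 12.53 in T/SS, 11.96 and 12.52 in T/HS, 12.78 and 12.72 in T/SS-LDL, and 13.06 and 12.53 in T/HS-LDL. T/HS minus T/HS-LDL was -0.55 ± 0.23 (limma unadjusted p = 0.0456, adjusted p = 0.775), and -0.28 without the averaged T/HS sample. Its second probe set gave -0.83 ± 0.21. Hspa9 (mortalin), the mitochondrial Hsp70, was at 9.79 and 9.76 in T/SS, 9 and 9.54 in T/HS, 9.79 and 10.21 in T/SS-LDL, and 9.62 and 9.79 in T/HS-LDL, with -0.50 ± 0.21 between T/HS and T/SS (limma unadjusted p = 0.0481, adjusted p = 0.564) and -0.23 without the averaged T/HS sample. Its other probe sets gave -0.40 ± 0.17 and 0.10 ± 0.13 between T/HS and T/SS. Hspe1 (Hsp10), the lid of the chamber, was at 11.80 and 11.91 in T/SS, 11.66 and 11.80 in T/HS, 12.24 and 12 in T/SS-LDL, and 11.98 and 11.86 in T/HS-LDL. Dnaja3 and Ppif differed by 0.03 ± 0.16 and 0.19 ± 0.20 between T/HS and T/SS. Of the nuclear members, Dnajc17 and Ppig differed by 0.00 ± 0.18 and -0.01 ± 0.10.

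In T/HS-LDL against T/SS-LDL the compartments did not lean one way: 12 of 20 cytosolic members were higher and 8 lower (median 0.06), and 8 of 15 endoplasmic reticulum members were higher and 7 lower (median 0.02), beside 0.01 over all genes. An unadjusted limma p under 0.05 was reached by 2 members that were higher (Dnajb1 and Pdia3) and 2 that were lower (Cryab and Hspb6), where all genes gave 1.94% and 2.17%. The groups did not overlap for 4 members that were higher and 8 that were lower, where all genes gave 16% and 13.1%. This comparison shares no sample with T/HS against T/SS.

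**Figure D5:**
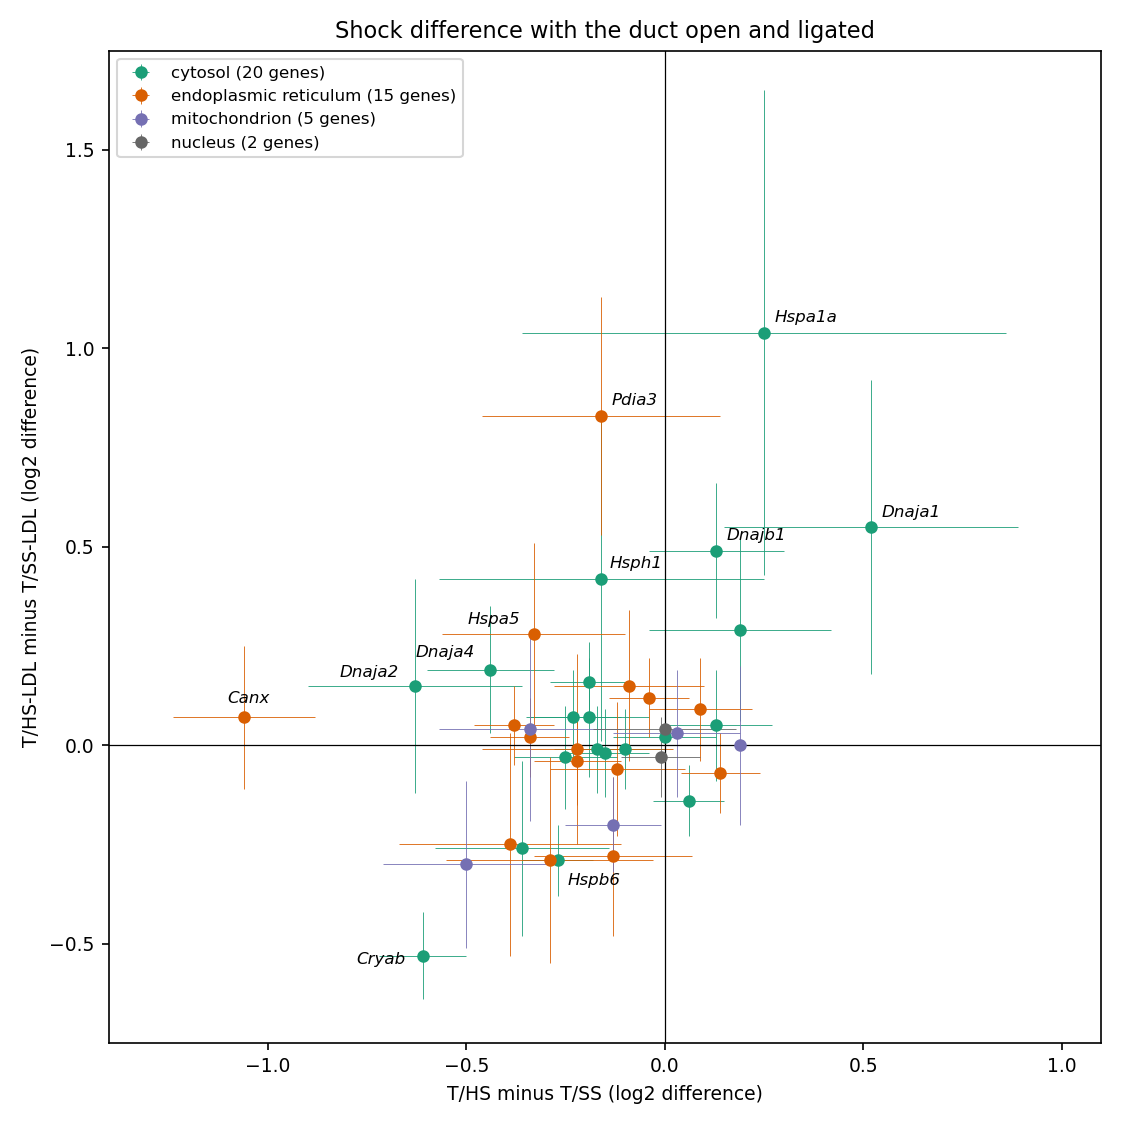
Each point is 1 of the 42 genes, coloured by compartment; the horizontal axis is the log2 difference T/HS minus T/SS, the vertical axis T/HS-LDL minus T/SS-LDL, and the bars are standard errors from limma. Cryab lies near -0.6 on one axis and -0.5 on the other, Canx lies at -1.06 and 0.07, and the points of Hspa1a, Hsph1 and Dnaja1 have the long error bars of genes that were high in 1 sample.

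Ligation without shock, T/SS-LDL against T/SS, gave medians of 0.03 in the cytosol and -0.03 in the endoplasmic reticulum, beside -0.02 over all genes. Only Cryab, which was higher, had an unadjusted limma p under 0.05, where all genes gave 1.58% higher and 2.03% lower. The groups did not overlap for 13 members that were higher and 5 that were lower, where all genes gave 16.6% and 24%. The 13 included 3 of the 5 mitochondrial members, Hspd1, Hspe1 and Hspa9.

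Averaged over both duct states, shock gave an unadjusted limma p under 0.05 for 1 member that was higher (Dnajb1) and 4 that were lower (Cryab, Hspb6, Canx and Hspa9), where all genes gave 3.7% and 5.85%. In 4 members, Cryab, Hspb6, Hspa9 and Hspe1, the shock samples lay below the sham samples in both duct states, on the probe sets that stand for them. Of all genes 4.81% did so. Among the other probe sets of these members, only that of Hspb6 did the same. The dimmest of Hspa9 differed by 0.10 ± 0.13 with the duct open and 0.13 ± 0.13 with it ligated. The second of Hspe1 differed by -0.07 ± 0.15 and -0.02 ± 0.15. For the interaction 5 members had an unadjusted limma p under 0.05, all with the lower value on the side of the open duct (Canx, Pdia6, Calr, Dnaja4 and Hspa1l), where all genes gave 1.73% in that direction and 1.06% in the other. The adjusted p was 1 for each of these 5.

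Compared by compartment, the median difference from the T/SS mean was -0.23 and -0.16 over the 15 endoplasmic reticulum members in the T/HS samples and -0.12 and -0.12 over the 20 cytosolic members, where all genes gave 0.04 and -0.05. In the T/HS-LDL samples these medians were 0.00 and 0.01 for the endoplasmic reticulum and 0.07 and -0.03 for the cytosol. Within the cytosol the classes parted: the 11 Hsp70 and Hsp40 genes had medians of 0.33 and 0.07 in the T/HS-LDL samples, and the 4 small heat shock proteins -0.11 and -0.20. In T/HS they were -0.12 and -0.10 for the first and -0.30 and -0.33 for the second. No test of 1 compartment against the other was made, since the genes of a sample are not independent.

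Of 60 other genes of these pathways (heat shock factors, co-chaperones, folding and quality control in the endoplasmic reticulum, the unfolded protein response and mitochondrial chaperones), 25 were measured, and 0 passed an adjusted p of 0.05 in limma in any comparison. In T/HS against T/SS 13 were higher and 12 lower, with a median of 0.01. By an unadjusted limma p under 0.05, 1 of the 25 was lower there and 0 higher, a share near the 4.98% of all genes. St13 (Hip), which steadies Hsp70 bound to its client, was at 11.22 and 11.02 in T/SS, 10.49 and 10.59 in T/HS, 10.84 and 11.25 in T/SS-LDL, and 11.47 and 10.80 in T/HS-LDL (-0.58 ± 0.24 against T/SS, limma unadjusted p = 0.0469, adjusted p = 0.564). It was also the 1 gene of the 25 in T/HS against T/HS-LDL (-0.59 ± 0.24), where 4.67% of all genes were lower by the same rule. Ubqln1, a shuttle to the proteasome, was higher and Trap1, the mitochondrial Hsp90, lower in T/HS-LDL than in T/SS-LDL, by 0.37 ± 0.14 and -0.41 ± 0.14 (limma unadjusted p = 0.0325 and 0.0204, adjusted p = 0.998 for both), 1 gene of 25 in each direction where all genes gave 1.94% and 2.17%. Ubqln1 was also higher with shock over both duct states (0.32 ± 0.10, limma unadjusted p = 0.0159, adjusted p = 0.438), the 1 gene of 25 where all genes gave 3.7%. Eif2ak3 (PERK), a sensor of the unfolded protein response, was higher after ligation in sham rats by 0.41 ± 0.16 (limma unadjusted p = 0.0424, adjusted p = 0.896), the 1 gene of 25 where all genes gave 1.58%. The 6 genes of the unfolded protein response differed by 0.03 to 0.11 between T/HS and T/SS.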

How the data were processed

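The deposited values are intensities on a linear scale, 1 per probe set and array, made with RMA per the submitters' processing notes; the version was not given in the sources used here. RMA's normalization between arrays can hide a shift shared by most genes. No further scaling was done, and log2 was taken. The 59 control probe sets among 8799 were dropped, leaving 8740 for the tests; 7006 had 1 symbol in the platform's annotation, 308 several and 1426 none. All 42 genes carry the same symbol in RefSeq GRCr8.

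limma 3.58.1 in R 4.3.3 fitted 4 group means to 8 samples (4 residual and 2.85 prior degrees of freedom, prior SD 0.131). The fit was run on simulated data as a check of the code. The simulated differences were larger than any of the members, so that check says nothing on differences of the size seen here. Tests are two-sided, with Benjamini-Hochberg adjustment over 8740 probe sets and a threshold of 0.05. The number of arrays limits the precision.

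The members, the lists and the averaging of near-identical arrays were chosen with earlier results of these data known. Genes were named if they reached an unadjusted p of 0.05 in a comparison, were among the 3 highest means of a compartment, or had a relative in another compartment; for Hspa8 and Ppia no probe set of 1 symbol was found, so those pairs are not given. Others were named after their values were seen. Same-numbered arrays of different groups did not deviate together (correlations -0.166 to 0.189 in 18 pairs, 3 of them over 0.1), so replicate numbers were not used as pairs. Alternatives were the 12 arrays as separate samples, with the replicate number as a block or with the sample as a random block, median or quantile scaling, leaving out the dimmest 25% of probe sets, the mean of a gene's probe sets, an intensity trend, fits of the groups compared alone, narrower compartment lists, and leaving out each sample.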

Additional observations from a re-analysis of the deposited data

Results flagged for a closer look

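For 3 members the shock difference had opposite signs with the duct open and ligated, with groups that did not overlap in either state. The difference between the differences, open minus ligated, was 0.21 for Cct3, -0.35 for Hspa1l and 0.22 for P4hb on the log2 scale. The limma interaction had an adjusted p of 1 for each of them.

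Probe sets that carry several symbols stand for no gene here. Of 6 such probe sets whose symbols all fall under the rule, 5 had their highest value in the averaged T/HS-LDL sample, as Hspa1a did: 13.54 with 11.41 to 11.93 in the other samples, 12.08 with 10.18 to 11.16, 10.59 with 9.03 to 9.98, 9.17 with 7.45 to 8.16, and 14.56 with 12.62 to 14.10. Which gene each of them measures was not analysed.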

How the results depend on the processing

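Of 600 values of single genes under the alternatives, 553 kept their direction and their side of the threshold. Another 42 passed the threshold where the 8-sample fit did not, and 5 changed sign. No member passed in the 8-sample fit, so none could lose the threshold. An intensity trend, fits of the compared groups alone and leaving out a sample outside the comparison cannot change a difference. The 553 therefore include values that could not change direction. The 5 that changed sign are the difference of Dnajc5 between T/HS and T/HS-LDL with the mean of all probe sets (0.00) and, without the averaged T/HS-LDL sample, those of Dnaja1 (-0.04), Hspa1a (-0.08), Hspa4 (-0.05) and Hsph1 (-0.28) between T/HS-LDL and T/SS-LDL. In the order shock with the duct open, ligation in shocked rats, shock with the duct ligated, ligation in sham rats, shock over both duct states and interaction, the 12 arrays as separate samples gave 629, 372, 127, 141, 733 and 1 probe sets past the threshold and 7, 9, 2, 0, 5 and 0 members. With the replicate number as a block they gave 456, 130, 47, 21, 570 and 1 probe sets and 7, 4, 1, 0, 4 and 0 members; with the sample as a random block 25 and 58 probe sets and 2 members (Canx and Cryab) and 1 member (Cryab) for shock with the duct open and for shock over both duct states, and 0 elsewhere. The 12-array fits other than the random block count near-identical arrays as separate samples, which makes their p-values too small. The random-block fit keeps 8 residual degrees of freedom, against 4 in the 8-sample fit, so its p-values may also be too small.

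Over all samples left out in turn, those differences of Dnaja1, Hspa1a, Hspa4 and Hsph1 reached 1.14, 2.15, 0.63 and 1.12 at the other end. Leaving out each sample gave 0 to 139, 0 to 66, 0 to 2, 0 to 2, 0 to 108 and 0 to 27 probe sets in the same order, and 0 to 1 members for shock over both duct states (Cryab), 0 elsewhere. Cytosolic medians then ranged from -0.19 to -0.12, -0.34 to -0.12, -0.01 to 0.08, 0.01 to 0.06, -0.06 to -0.03 and -0.29 to -0.10, and those of the endoplasmic reticulum from -0.24 to -0.11, -0.22 to -0.15, -0.02 to 0.04, -0.03 to 0.02, -0.15 to -0.05 and -0.30 to -0.13. With the mean of all probe sets the endoplasmic reticulum medians were -0.29, -0.22, -0.03, -0.19 and -0.22 for shock with the duct open, ligation in shocked rats, shock with the duct ligated, shock over both and the interaction, and the cytosolic median of the interaction -0.23. On 12 arrays, with or without the replicate block, the shock median of the endoplasmic reticulum was -0.05 and the cytosolic interaction median -0.24. Quantile scaling gave -0.11 for the endoplasmic reticulum for ligation in sham rats, and the list without Ppib and the Hsp40 genes -0.24 for its interaction. The cause of these shifts was not tested. The number of samples, 2 per group, limits the precision; signal over background could not be judged, as no detection calls were used.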
